A study of Danio rerio with 6 samples.

Results

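The 10 genes described here act in bone formation and mineralization, and their RNA was measured in entire zebrafish larvae aged 7 days post fertilization. They are runx2b, sp7, entpd5a, alpl, phex, panx3, bglap, spp1, ifitm5 and mgp, chosen by name as known bone genes, with earlier results of these data known. All 10 were found among the 23876 genes of the deposited table, with 14 transcript rows between them, and each gene is represented by its row with the highest mean over all libraries. The larvae were homozygous for a mutation in znf469 (znf469-KO, written znf469-4del in the design text) or wild type (wt), both kept at 28.5 °C. ZNF469, the human counterpart, is a zinc finger gene mutated in brittle cornea syndrome. Each genotype had 3 pools of 50 larvae, and each pool gave 1 library of polyadenylated RNA. Whether the pools stem from separate clutches is not stated in the labels, and the p-values cover the spread of these pools alone. RNA came from the whole body and not from isolated bone.

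Bone of larval fish is laid down by osteoblasts, which Runx2 and then Sp7 (osterix) set on their course and which secrete a matrix of type I collagen. Mineral forms in that matrix where phosphate is in supply and its inhibitor pyrophosphate is removed, and the enzymes Entpd5 and Alpl serve these steps. Proteins that carry gamma-carboxyglutamate (Gla), among them osteocalcin and matrix Gla protein, bind calcium, and matrix Gla protein restrains calcification in mammals.

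Reads over all transcripts numbered 17023269 to 19156581 per library. A read shared by isoforms may be counted more than once, as isoforms such as those of alpl had similar counts. The counting method is not stated. On the second principal component of 22803 genes (25.5% of the variance), znf469-KO replicate 2 (score -63.0) and wt replicate 1 (73.1) stood apart from the other libraries. Counts for the members and each gene list are therefore given with and without these libraries. The fit without them rests on 2 pools of each genotype. Transcripts of znf469 itself were at 210 ± 23.4 in znf469-KO pools and 233 ± 54.2 in wt pools (SD, n = 3 each; adjusted p = 0.786), a level that cannot check the labels, because a mutated gene may still be transcribed. Values are normalized read counts: those of each library were whole multiples of 1 step, taken as 1 read and worth 0.937 to 1.08. They are not scaled by transcript length and were compared between genotypes, not between genes.

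The gene mgp rose in the mutant and was the 1 member that passed the test. Of the 9 members tested, 0 fell, 1 rose and 8 did not pass (limma, Benjamini-Hochberg adjusted p below 0.05), where 2.18% of all genes tested were lower and 2.31% higher. The genes sp7, entpd5a and panx3 had lower values in all 3 mutant pools than in any wild type pool, without passing the adjusted test. In all, 3 members lay below and 2 above without overlap of the genotypes, beside 11.8% and 11.6% of all genes tested. At an unadjusted p below 0.05, 3 members were lower and 1 higher, beside 9.17% and 9.03% of all genes. The count of lower members was also 0 with edgeR, where 2.21% of all genes were lower, and 0 with limma-voom. It was 1 with DESeq2 (entpd5a), where 3.21% of all genes were lower. The median log2 fold change of the 9 members was -0.35, beside 0.00 over all genes tested. In pooled whole larvae, fewer cells of a type and less RNA per cell cannot be told apart.

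**Figure D1:**
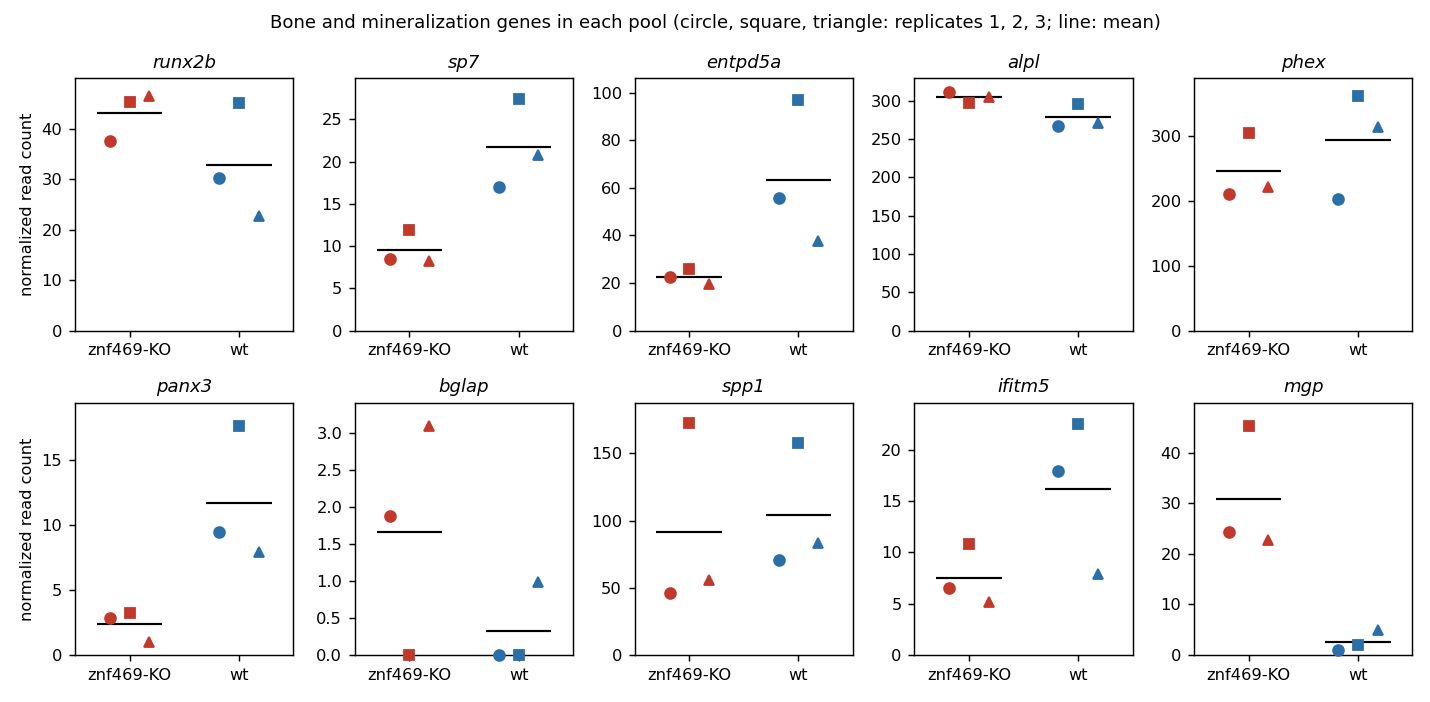
Normalized read count (vertical axis, from 0, own scale per gene) of each of the 10 genes in the 3 znf469-KO pools (red, left) and the 3 wt pools (blue, right), with the mean as a line. For mgp the znf469-KO pools lie between 22.7 and 45.3 and the wt pools between 0.944 and 4.95, while the pools of the genotypes share their range for runx2b, phex, spp1, ifitm5 and bglap.

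The first step of the osteoblast programme showed no difference past the spread of the pools. The gene runx2b encodes the Runt-domain transcription factor that starts osteoblast differentiation. Its main transcript was at 37.5, 45.3 and 46.4 in znf469-KO pools and at 30.2, 45.1 and 22.8 in wt pools. The ranges overlapped through wt replicate 2, and the log2 fold change was 0.43 (SE 0.33, adjusted p = 0.538). The other runx2b transcript in the table was rare, with 1 to 9 reads in znf469-KO pools and 1 to 5 reads in wt pools. The second paralogue, runx2a, was also rare, at 0.359 ± 0.622 in znf469-KO pools and 2.26 ± 1.11 in wt pools (SD, n = 3 each; adjusted p = 0.307).

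Downstream of Runx2, sp7 encodes the zinc finger factor osterix, which osteoblasts need to mature. Its values were 8.43, 11.9 and 8.25 in znf469-KO pools and 17.0, 27.5 and 20.8 in wt pools. Every mutant pool lay below every wild type pool, with a gap between the highest mutant value and the lowest wild type value. The log2 fold change was -1.11 (SE 0.38, adjusted p = 0.146), so the difference did not pass over all genes. Without wt replicate 2 the fold change was -0.93 (adjusted p = 0.478). The values of sp7 stand on 8 to 11 reads per library in znf469-KO and 18 to 28 in wt, and this depth limits the precision. The ratio of sp7 to runx2b within a library needs no scaling between libraries. It was 0.225, 0.262 and 0.178 in znf469-KO pools, and 0.562, 0.609 and 0.913 in wt pools. The pair was chosen after its values were seen, so the ratio was not tested.

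Of the enzymes that govern phosphate in the matrix, neither entpd5a nor alpl passed. The gene entpd5a encodes a secreted nucleoside diphosphatase that zebrafish need for skeletal mineralization, and it is expressed by osteoblasts and by notochord sheath cells. It was at 22.5, 25.9 and 19.6 in znf469-KO pools and at 55.7, 97.1 and 37.6 in wt pools. The mutant pools were close to each other and all below the wild type pools, which ranged widely. On the log2 scale the difference was -1.35 (SE 0.37, adjusted p = 0.0728). With DESeq2 on the recovered reads it passed (adjusted p = 0.0173), and in the authors' deposited table its log2 fold change was -1.49 with a q-value of 0.00621, where 4.47% of the same rows were lower at q below 0.05. Without wt replicate 2 the fold change was -0.99 (adjusted p = 0.333).

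The gene alpl encodes tissue-nonspecific alkaline phosphatase, which breaks down pyrophosphate and is also active outside bone. Its level was 311, 297 and 305 in znf469-KO pools and 267, 296 and 271 in wt pools. It varied least of all members within a genotype, with a coefficient of variation of 2.25% in znf469-KO and 5.64% in wt. The mutant pools lay just above the wild type pools, but this separation ended under the scaling of edgeR, DESeq2 and limma-voom and with the same total per library. The log2 fold change was 0.13 with a 95% interval of -0.21 to 0.47 (adjusted p = 0.710). The 3 deposited transcripts of alpl gave log2 fold changes of 0.13 to 0.17. Set within each library, entpd5a over alpl was 0.0723, 0.0870 and 0.0642 in znf469-KO pools, against 0.208, 0.328 and 0.139 in wt pools, a ratio also chosen after its values were seen.

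The gene phex encodes an endopeptidase whose loss in humans causes renal phosphate wasting and soft bone. Its values of 211, 304 and 222 in znf469-KO pools lay within the range of 203, 362 and 314 in wt pools. The log2 fold change was -0.23 (SE 0.24, adjusted p = 0.674). Both deposited transcripts of phex, which had similar read counts and may share reads, gave nearly the same result (-0.23 and -0.24).

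The gene panx3 encodes a pannexin channel that in mammals marks prehypertrophic chondrocytes and osteoblasts. It had the largest negative fold change of the members on few reads, with 3, 3 and 1 in znf469-KO pools and 10, 18 and 8 in wt pools. As normalized read counts these were 2.81, 3.23 and 1.03 in znf469-KO pools, against 9.44, 17.7 and 7.92 in wt pools. The groups did not overlap, and the log2 fold change was -1.91 (SE 0.52, adjusted p = 0.0692). With wt replicate 2 left out it was -1.59 (adjusted p = 0.304). The authors' deposited table gives it a log2 fold change of -2.31 and a q-value of 0.0569.

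Neither spp1 nor ifitm5, genes of bone matrix and of mature osteoblasts, passed. The gene spp1 encodes osteopontin, an acidic phosphoprotein of bone matrix that macrophages of mammals also make. It was at 45.9, 172 and 55.7 in znf469-KO pools and at 70.8, 158 and 83.1 in wt pools. Replicate 2 was far above the other pools in both genotypes, the log2 fold change was -0.35 (SE 0.48, adjusted p = 0.757), and it was 0.0068 without znf469-KO replicate 1. The gene ifitm5 encodes a small membrane protein of osteoblasts that is mutated in a human form of brittle bone disease. It was at 6.56, 10.8 and 5.15 in znf469-KO pools and at 17.9, 22.6 and 7.92 in wt pools. The ranges overlapped through znf469-KO replicate 2 and wt replicate 3, and the log2 fold change was -0.95 (SE 0.49, adjusted p = 0.346).

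Osteocalcin, encoded by bglap, was at the limit of detection. It had 2, 0 and 3 reads in znf469-KO pools and 0, 0 and 1 in wt pools, where a count of 0 allows up to 3 counts. The gene was below the filter on low values and was not tested in the main fit. In the authors' deposited table its log2 fold change was 2.26 and its q-value 0.641. With so few reads, whether its level differed between the genotypes cannot be told.

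The gene mgp encodes matrix Gla protein. It had 26, 42 and 22 reads in znf469-KO pools and 1, 2 and 5 reads in wt pools. As normalized read counts these were 24.4, 45.3 and 22.7 in znf469-KO pools, against 0.944, 1.96 and 4.95 in wt pools. The lowest mutant pool was well above the highest wild type pool. The log2 fold change was 3.22 (SE 0.52, adjusted p = 0.00855), or 9.32-fold on the scale of value + 1, and the ratio of the means was 11.8. It passed in 18 of 19 other settings, with log2 fold changes of 2.21 to 3.66. The exception was the fit without wt replicate 2, at 3.15 (adjusted p = 0.0517), in which 0.623% of all genes were higher. In the authors' deposited table its log2 fold change was 3.56 and its q-value 1.64e-05, where 4.92% of the same rows were higher at q below 0.05.

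In the gene order of RefSeq on GRCz12tu, which is not the build of the table, bglap is the next gene to mgp. Of the 8 protein-coding genes nearest to mgp (4 on each side), 4 had a row and 2 could be tested. One of these, ddx47, an RNA helicase gene, rose to 819 ± 99.4 in znf469-KO pools, against 437 ± 53.7 in wt pools (SD, n = 3 each; log2 fold change 0.91, adjusted p = 0.0133). The other, wbp11, did not pass (-0.15, adjusted p = 0.796). These neighbours were looked up after the value of mgp was known, and 2.31% of all genes tested were higher. By the same positions mgp is not on the chromosome of znf469, while the member ifitm5 is. The member panx3 was not found there under that symbol, so its chromosome was not read. Whether position or linkage had a part in these values was not tested.

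The gene ucmab, a Gla protein gene of cartilage, fell to 177 ± 65.0 in znf469-KO pools, against 505 ± 138 in wt pools (SD, n = 3 each; log2 fold change -1.53, SE 0.28, adjusted p = 0.0154). Its paralogue ucmaa was at 7.59 ± 4.14 in znf469-KO pools and 28.7 ± 15.7 in wt pools, at -1.77 (adjusted p = 0.0817). Without wt replicate 2, ucmab was at -1.41 (adjusted p = 0.0969).

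**Figure D2:**
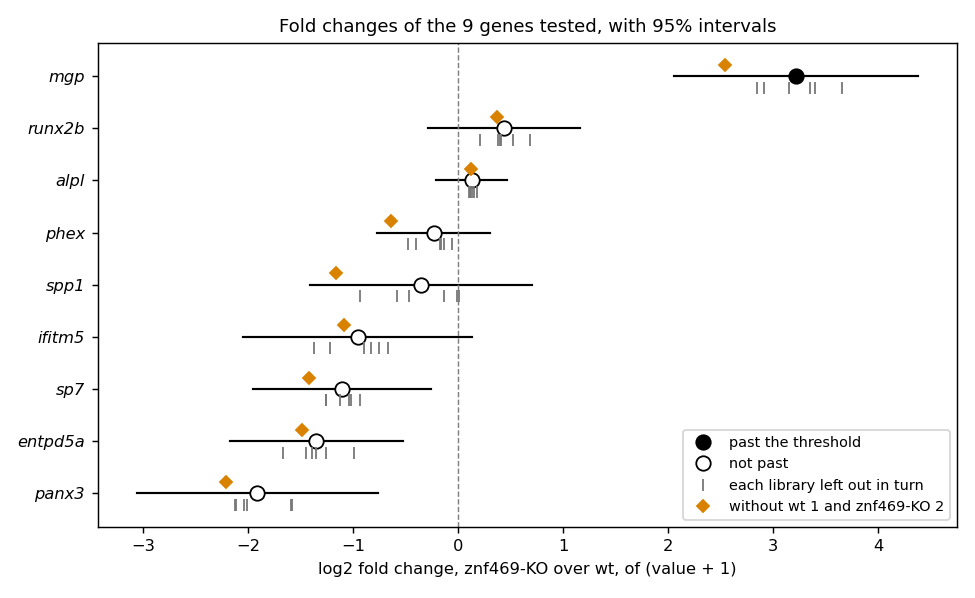
Log2 fold change of znf469-KO over wt, on the scale of value + 1, for the 9 genes tested, with 95% intervals as lines, the fits without each library as ticks and the fit without the 2 libraries that stood apart as diamonds. The gene mgp, at 3.22, is the filled point, and panx3, entpd5a and sp7, at -1.91, -1.35 and -1.11, have intervals that do not reach 0. The intervals are per gene and not adjusted over all genes, and panx3, entpd5a and sp7 did not pass the adjusted test.

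Within each genotype, replicate 2 was often the highest pool. It had the highest mutant value in 7 of the 9 members tested, beside 50.6% of all genes tested, and the highest wild type value in 8 of 9, beside 25.1% of all genes. The lowest wild type value was in replicate 1 for 5 members and in replicate 3 for 4. The members not highest in replicate 2 were runx2b and alpl in znf469-KO pools, and mgp in wt pools. The median of the members' log2 levels, each set against the gene's own mean, was -0.59, 0.05 and -0.62 in znf469-KO pools and -0.12, 0.86 and -0.05 in wt pools. By this summary znf469-KO replicate 2 lay above wt replicates 1 and 3. Spread within a genotype was largest for spp1 among mutant pools and for mgp among wild type pools of the genes tested, with coefficients of variation of 77.1% and 79.5%. The labels give no clutch or day that equal replicate numbers of the genotypes would share.

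**Figure D3:**
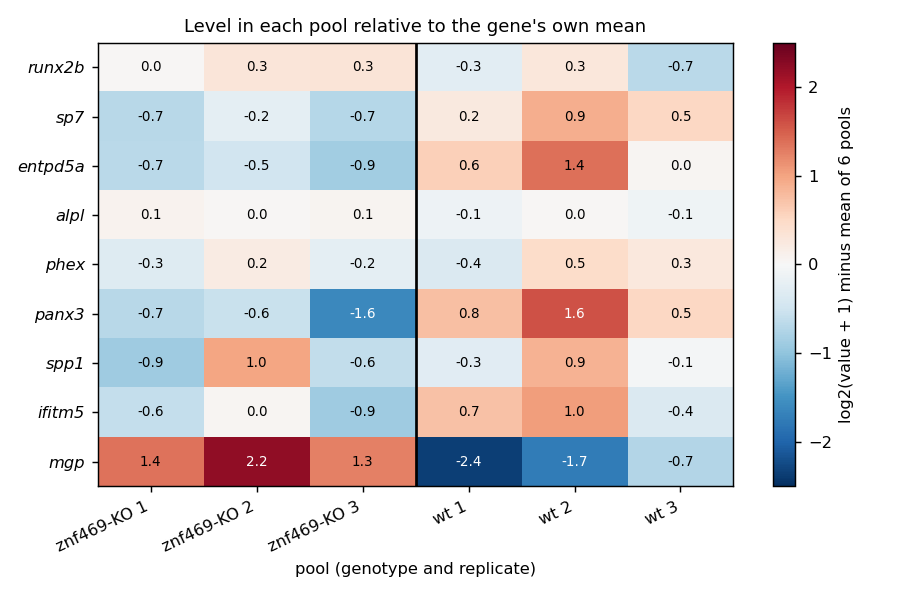
Level of each of the 9 genes tested in each pool, as log2(value + 1) minus the gene's mean over the 6 pools (red above, blue below), with znf469-KO pools left of the line and wt pools right of it. The column of wt replicate 2 is red or near 0 for each gene but mgp, and the row of mgp has colours opposite to those of the rows of sp7, entpd5a and panx3.

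Without znf469-KO replicate 2 and wt replicate 1, 5 of the 9 members fell and mgp rose. In this fit 10.8% of all genes were lower and 11.2% higher, against 2.18% and 2.31% with all libraries. Each pool left out was also the pool of its genotype nearest the other genotype on the first principal component (43.1% of the variance). Scores were 24.2 for znf469-KO replicate 2, against 58.6 and 64.0 for the other znf469-KO pools. They were -13.7 for wt replicate 1, against -60.0 and -73.0 for the other wt pools. Leaving out such pools favours separation of the genotypes, so these calls are no separate support for the falls. The members that fell were sp7 (-1.41, adjusted p = 0.0343), entpd5a (-1.48, adjusted p = 0.0343), panx3 (-2.21, adjusted p = 0.0306), spp1 (-1.17, adjusted p = 0.0242) and phex (-0.64, adjusted p = 0.0124). The highest mutant value of spp1, in replicate 2, was left out of this fit. The gene mgp was at 2.55 (adjusted p = 0.00766), and runx2b, alpl and ifitm5 did not pass (0.37, 0.12 and -1.09).

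The genes whose centred levels were most like the median profile of the members, by root mean square difference over the 6 libraries, were faub (0.109 log2 units), igflr1 (0.116), afap1l1b (0.152), aldh9a1b (0.156) and hs1bp3 (0.163). All 5 had adjusted p of at least 0.316, with log2 fold changes of -0.55 to -0.74.

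Other genes of the skeleton were taken from lists of known roles. In the main fit 2.18% of all genes tested were lower and 2.31% higher. At an unadjusted p below 0.05 these shares were 9.17% and 9.03%. Of 34 regulators and signals of osteoblasts, 0 passed in limma (4 lower and 0 higher at an unadjusted p below 0.05, 0 with edgeR and 1 lower with DESeq2), with a median of -0.17. The smallest p-values belonged to bmp4, a bone morphogenetic protein gene, at 88.3 ± 33.6 in znf469-KO pools and 177 ± 17.6 in wt pools (SD, n = 3 each; -1.07, adjusted p = 0.0712), and to the homeobox gene msx2b (-1.11, adjusted p = 0.135). Without the 2 libraries that stood apart, 9 of these 34 genes were lower and 2 higher, in a fit where 10.8% of all genes were lower and 11.2% higher.

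Among 25 other genes of bone matrix and vesicles, 4 fell and 21 did not pass, with a median of -0.70. In this fit 2.18% of all genes tested were lower. At an unadjusted p below 0.05, 11 of the 25 were lower and 0 higher, beside 9.17% and 9.03% of all genes. Without overlap of the genotypes, 14 lay below and 0 above, beside 11.8% and 11.6% of all genes. The largest fall of the 4 was that of postnb, which encodes the matrix protein periostin, at 665 ± 185 in znf469-KO pools and 2179 ± 261 in wt pools (SD, n = 3 each; -1.74, adjusted p = 0.00179). The gene sparc encodes osteonectin, a collagen-binding protein that is abundant in bone but not limited to it. It fell to 1517 ± 666 in znf469-KO pools, against 3613 ± 127 in wt pools (-1.34, adjusted p = 0.0176). The other 2 were ucmab, given above, and the adhesion glycoprotein gene tnc (-0.74, adjusted p = 0.0272). Of the 4, only postnb passed in each of the 19 other settings, and sparc, tnc and ucmab passed in 15 each. Type X collagen col10a1a, made by hypertrophic chondrocytes and by osteoblasts of fish, was at 42.2, 440 and 155 in znf469-KO pools and at 589, 1620 and 512 in wt pools, chosen after its values were seen. Its groups did not overlap, and its log2 fold change of -2.46 did not pass (SE 0.71, adjusted p = 0.0850). The gene phospho1, which encodes a phosphatase of matrix vesicles, was at 7.99 ± 2.04 in znf469-KO pools and 7.47 ± 1.63 in wt pools (SD, n = 3 each; 0.08, adjusted p = 0.945). The list had 1 lower gene without wt replicate 2, znf469-KO replicate 1 or znf469-KO replicate 3, and 2 without wt replicate 3. In those fits, in that order, 102, 207, 171 and 192 of all genes were lower, in place of 497. Without the 2 libraries that stood apart the list had 13 lower genes, where 10.8% of all genes were lower.

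In the list for phosphate, pyrophosphate and calcium handling, 1 of 34 genes fell, 2 rose and 31 did not pass, with a median of 0.06. Over all genes tested in the same fit, 2.18% were lower and 2.31% higher. At an unadjusted p below 0.05, 4 of the 34 were lower and 7 higher, beside 9.17% and 9.03% of all genes. Without overlap of the genotypes, 4 lay below and 8 above, beside 11.8% and 11.6% of all genes. The gene pth1b encodes a parathyroid hormone, a regulator of blood calcium. It was at 5.62, 5.39 and 4.12 in znf469-KO pools and at 18.9, 38.2 and 52.4 in wt pools, well apart, with a log2 fold change of -2.53 (SE 0.45, adjusted p = 0.0123). Its call ended without wt replicate 2, wt replicate 3 or znf469-KO replicate 3 (adjusted p = 0.0850, 0.0578 and 0.0569). The genes that rose were alp3, another alkaline phosphatase gene (1.01, adjusted p = 0.0422), and calca, which encodes calcitonin and a related neuropeptide (0.95, adjusted p = 0.0480). Each of these passed in 12 of 19 other settings. With any 1 library left out calca did not pass (adjusted p of 0.0651 to 0.200), and alp3 passed only without wt replicate 1 (adjusted p = 0.0378). The gene enpp1, whose product makes pyrophosphate, was at 220 ± 47.6 in znf469-KO pools and 219 ± 34.7 in wt pools (SD, n = 3 each; -0.01, adjusted p = 0.993). The phosphate hormone gene fgf23 was at 6.40 ± 0.195 in znf469-KO pools and 9.38 ± 5.71 in wt pools (adjusted p = 0.846). Without the 2 libraries that stood apart, 1 of the 34 genes was lower and 5 were higher. In that fit 10.8% of all genes were lower and 11.2% higher.

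Of 16 osteoclast genes, 0 passed in limma, 0 had an unadjusted p below 0.05, and 0 passed with edgeR or DESeq2, with a median of -0.13. The protease gene ctsk, with which osteoclasts digest matrix, was at 157 ± 67.3 in znf469-KO pools and 190 ± 12.9 in wt pools (SD, n = 3 each; -0.35, adjusted p = 0.550). The smallest p-values were those of nfatc1 (-0.56, adjusted p = 0.372) and dcstamp (0.76, adjusted p = 0.404). Without the 2 libraries that stood apart, 2 of the 16 genes were lower and 1 higher. In that fit 10.8% of all genes were lower and 11.2% higher.

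Markers of other cell types were read in the same main fit, where 2.18% of all genes tested were lower and 2.31% higher. Of 20 chondrocyte markers, 11 fell and 9 did not pass, led by the collagens col11a2, col2a1a, col9a2, col9a3, col9a1a and col9a1b (-3.08 to -3.83). By sign alone, 14 of the 20 fold changes were negative and 6 positive. Of the positive ones, which did not pass, comp (0.46, adjusted p = 0.166) and acanb (0.56, adjusted p = 0.237) lay above the wild type pools without overlap. The summed level of the list was 5952 to 9339 in znf469-KO pools and 22883 to 30476 in wt pools. Of this sum, col2a1a alone gave 774 to 1625 in znf469-KO pools and 8567 to 12224 in wt pools. The sum is thus weighted to the most abundant genes and does not stand for each marker. Of 12 fibroblast and tendon markers, 5 fell (col1a2, tnmd, dcn, lum and fmoda; 2 without wt replicate 2 and 3 without wt replicate 3, znf469-KO replicate 1 or znf469-KO replicate 3). Their sums were 2271 to 3852 in znf469-KO pools and 10846 to 11754 in wt pools. Much of these sums was col1a2, at 752 to 1693 in znf469-KO pools and 7955 to 8579 in wt pools. That gene encodes a chain of type I collagen, which osteoblasts also secrete, so these sums are not of fibroblasts alone. All 12 fold changes were negative, from -2.96 to -0.03, and 7 genes did not pass. Of 7 notochord markers, col8a1a (0.92) and loxl5b (1.83) rose and 5 did not pass. Their sums overlapped, at 2039 to 2515 in znf469-KO pools and 1794 to 3281 in wt pools. By sign alone, 2 of the 7 fold changes were negative and 5 positive. Of the negative ones, cmn (-0.69, adjusted p = 0.128) lay below the wild type pools without overlap. The calls of col8a1a and loxl5b ended without wt replicate 2, wt replicate 3, znf469-KO replicate 1 or znf469-KO replicate 3. In this list 1 marker was higher without wt replicate 1, where 1 was also lower, and 1 was higher without znf469-KO replicate 2. Of 12 epidermis markers 3 fell (krtt1c19e, krt5 and cyt1l, at -1.86, -1.59 and -0.76), with sums of 63933 to 118245 in znf469-KO pools and 148671 to 173689 in wt pools. With 1 library left out, 1 to 6 epidermis markers were lower, the most without znf469-KO replicate 2. Of 14 skeletal muscle markers 2 fell (casq1a and acta1b, at -2.34 and -2.41), and 5 were lower without znf469-KO replicate 2. The sums of this list were 443533 to 613633 in znf469-KO pools and 630307 to 777486 in wt pools. Little of these sums was casq1a or acta1b, with means of 873 and 7792 in wt pools. Most came from the 12 muscle markers that did not pass. Of 9 macrophage markers 0 passed (1 at an unadjusted p below 0.05, 0 with edgeR or DESeq2), and marco and ptprc had the lowest p-values (0.80 and -0.52, adjusted p = 0.180 and 0.423). Without the 2 libraries that stood apart, 13 of 20 chondrocyte and 7 of 12 fibroblast and tendon markers were lower. So were 9 of 12 epidermis and 9 of 14 skeletal muscle markers. In that fit 1 chondrocyte marker and 1 macrophage marker were higher, and 2 notochord markers were lower and 2 higher. Over all genes 10.8% were lower and 11.2% higher there. With 1 library left out in turn, 102 to 771 of all genes were lower and 142 to 814 higher, in place of 497 and 526. In no list was a marker at 0 reads in all 6 libraries. The part of these cell types in the values of sp7, entpd5a, panx3 and mgp was not tested.

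**Figure D4:**
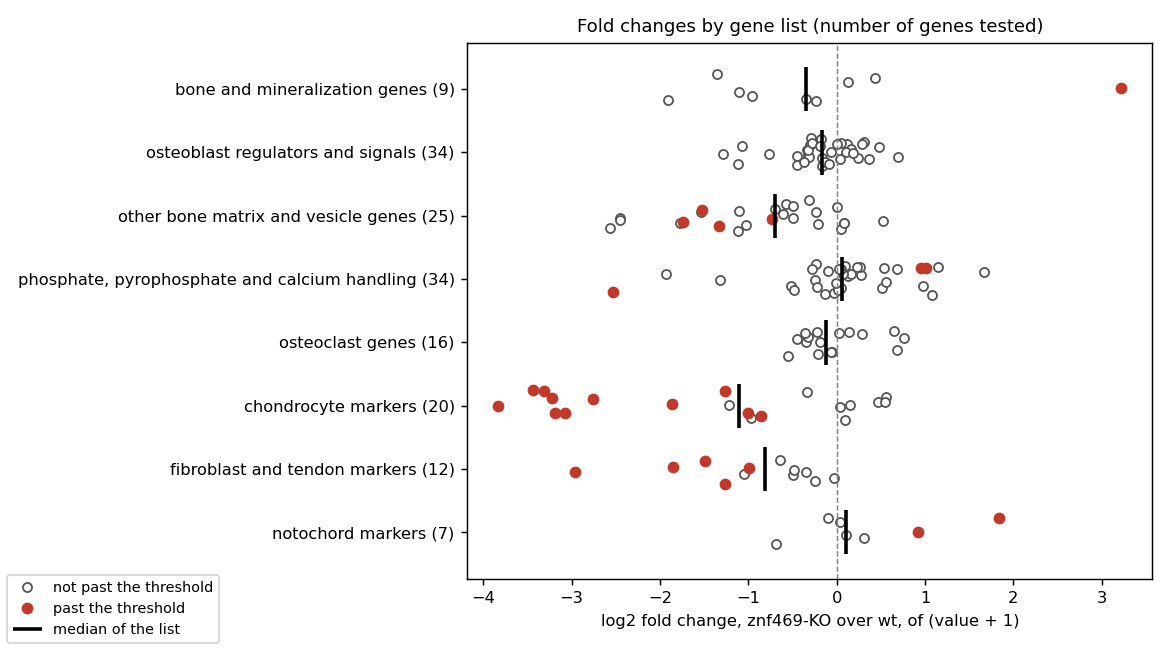
Log2 fold change of znf469-KO over wt, on the scale of value + 1, of every gene tested in the list of bone and mineralization genes and in 7 further lists, with genes past the threshold filled and list medians as bars. The bone and mineralization genes have a median of -0.35 with mgp as the filled point, the other bone matrix genes a median of -0.70, and the chondrocyte markers a median of -1.11.

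Depth set the limits of several of these statements. Of the 10 members, 6 had fewer than 50 reads in every library, and only phex and alpl had 100 or more in each. The whole group of panx3 values rests on 7 reads in znf469-KO pools and 36 in wt pools, and that of mgp on 90 and 8.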

How the data were processed

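Per the labels' protocols, polyadenylated RNA of pooled whole larvae was read as paired 150 bp reads. The submitters' processing notes name the build GRCz11. No aligner, counter or strand setting is given in the sources used here. The deposited table gives 1 signal value per RefSeq transcript and library. Divided by the lowest positive value of its library, each value was whole to within 0.001 (100% of values), so reads could be recovered, although in wt replicate 3 the step (0.990) is close to 1. The deposited log2 fold change, p-value and q-value per transcript are the authors', from a test that is not stated, and 99.8% of the fold changes had the sign of mutant minus wild type.

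The main test was limma 3.58.1 (R 4.3.3) with an intensity trend on log2(value + 1), over 22803 genes that reached a value of 1 in 3 libraries or more, two-sided, with Benjamini-Hochberg adjustment over all of them and a threshold of 0.05. Fold changes on this scale understate the change of low genes. Pools of 1 genotype differed beyond sampling noise, with chi-square values per gene of 5.08 to 20.4. Other settings were edgeR 4.0.16, DESeq2 1.42.0 and limma-voom on recovered reads, other pseudocounts, filters and scalings, summed transcripts, a replicate block, and fits without libraries. The scripts were tested on simulated data. The members, lists, settings and the rule for named genes were chosen with earlier results of these data known. The rule names all members, up to 6 called genes per other list or else the 2 smallest p-values, and 5 genes of like profile with a mean of 10 or more. Phospho1, enpp1, fgf23, ctsk, runx2a, ucmaa, col10a1a, comp, acanb and cmn lie outside it and were named after their values were seen. Positions in GRCz12tu served only for which genes are neighbours or share a chromosome.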

Additional observations from a re-analysis of the deposited data

How the results depend on the processing

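Among the members, runx2b, ifitm5 and alpl kept their direction and their side of the threshold in 19 of 19 other settings, and mgp kept its direction in 19 and passed in 18. Of the others, sp7, spp1, phex and panx3 passed in 1 other setting each and entpd5a in 2, and panx3 had no value under the filter of 10. The sign of spp1 turned in 1 setting, to 0.0068 without znf469-KO replicate 1, and with 1 library left out in turn its log2 fold change was -0.94 to 0.0068. The count of lower members was 1 with DESeq2 and 5 without the 2 libraries that stood apart, in place of 0. Members whose groups did not overlap on the higher side (alpl and mgp) numbered 2, and 1 under edgeR with TMM or RLE, DESeq2, limma-voom and the same total per library. On the lower side they numbered 3, and 2 under the filter of 10, where panx3 had no value. Without the 2 libraries they numbered 6, where 34.6% of all genes lay below and 29% above without overlap. With 1 library left out in turn, 0 members were lower, 0 to 1 were higher, and 3 to 5 lay below and 2 to 3 above without overlap, beside 13.8% to 22.3% and 13.9% to 19.7% of all genes.

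Other bone genes of the 4 lists that were lower numbered 5, and 9 with DESeq2, 8 with the replicate block, 25 without the 2 libraries and 1 to 7 with 1 library left out. Those that were higher numbered 2, and 1 with summed transcripts or the same total per library. They numbered 8 without the 2 libraries and 0 to 1 with 1 library left out. The 4 lists had 34, 25, 34 and 16 genes tested. Of all genes, 2.18% were lower and 2.31% higher in the main fit, and 3.21% were lower with DESeq2. Without the 2 libraries 10.8% of all genes were lower and 11.2% higher. Over all genes 497 were lower and 526 higher; these were 2464 and 2551 without the 2 libraries, and 102 to 771 and 142 to 814 with 1 library left out, the fewest without wt replicate 2. The cause of these shifts was not tested. The genotypes share replicate numbers, but the deviations of same-numbered pools had correlations of only 0.14, 0.13 and -0.26. The largest correlations were between pools of unlike number. They were 0.283 for znf469-KO replicate 3 with wt replicate 1, and 0.276 for znf469-KO replicate 2 with wt replicate 3. The replicate block gave 980 called genes in place of 1023 and changed the call of no member. Members with under 50 reads per library limit what could be called.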
